A study of Mus musculus with 18 samples.

Results

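The account covers 34 genes of DNA repair and of the DNA damage checkpoint in mouse bone-marrow-derived macrophages, chosen by gene symbol and sorted into 5 pathways. Array probes were matched to the genes through their RefSeq transcript accessions. Of the 34 genes, 33 had a probe and could be tested, among 20813 genes in all. Rad51c had no matching probe and is not analysed here. Of the 33, 30 were well above background in all 18 samples. Brca1, Fancd2 and Chek1 were dimmer, and their values are given with the number of samples in which they were detected.

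The knockout groups were PHD3-/- macrophages at low oxygen, PHD3-/- macrophages after starvation and PHD3-/- control macrophages. The 3 wild-type groups matched them, at low oxygen, starved and control. Low oxygen is labelled 1, and the starved and control groups 20, with no unit given. All mice were male C57BL/6J aged 8 weeks, and marrow cells from the femur were grown for 7 days with macrophage colony stimulating factor. PHD3, encoded by Egln3, is an oxygen-dependent prolyl hydroxylase that acts on hypoxia-inducible factors. Each of the 6 groups held 3 samples, from 3 mice per the design text. The labels do not say whether the cells or the mice were starved, or whether 1 mouse gave samples to several conditions. P-values therefore measure the spread between these samples.

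Levels are log2 signals of 1-colour Agilent arrays relative to the 75th percentile of each array, so 0 is that percentile. Each probe has its own scale, and levels are compared only between samples. On each array 56.1% to 65.4% of the spots passed the scanner software's background test. Replicate 3 of the starved wild-type cells, replicate 3 of the PHD3-/- controls and replicate 1 of the wild-type controls each correlated least with the rest of their group. Results without these 3 samples are given at the end. Wild-type low-oxygen replicates 2 and 3 had lower mean correlations within their group (0.9892 each, against 0.9901 to 0.9915) and were kept there. The signal of the targeted gene, Egln3, lay between 2.71 and 2.98 in knockout cells at low oxygen, between -2.61 and -2.29 in starved knockout cells and between -4.20 and -3.76 in knockout controls. Wild-type cells gave 2.83 to 3.00 at low oxygen, -2.36 to -2.19 when starved and -3.77 to -3.10 in controls. The knockout differed from wild type by -0.05 at low oxygen (95% interval -0.39 to 0.28), -0.11 when starved (-0.45 to 0.23) and -0.49 under control conditions (-0.83 to -0.15), each with a limma adjusted p of 1. No source states where the probe lies relative to the deleted part. The signal therefore checks nothing about the genotype, and samples are called knockout by their labels. Of 12 macrophage markers, 10 were tested, and all 10 were well above background in all 18 samples.

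Cells repair a broken double strand either by homologous recombination, which copies a sister chromatid and works after replication, or by end joining, which ligates the ends directly. The Fanconi proteins unhook crosslinks that tie both strands together, and mismatch repair corrects errors left by the replication fork. Atm and Atr are the kinases that sense breaks and stalled forks, and they signal through Chek2 and Chek1 to hold the cell cycle. Many genes of recombination, of the Fanconi pathway and of mismatch repair are known as targets of E2F transcription factors, which switch on genes of DNA synthesis as cells enter S phase. Macrophages grown from marrow with this growth factor still divide while they mature.

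Promoter windows from RefSeq (GRCm38.p6) ran from 250 bases before to 50 bases after each gene's start. The table held 30 windows of 27 of the 34 genes. Each was searched on both strands for an E2F motif, spelled TTTCCCGC, TTTCGCGC, TTTGCCGC or TTTGGCGC. It was present in 9 of 30 windows (30.0%), and in 744 of the 32851 windows of all genes (2.26%). Of the 19 windows of genes lower at low oxygen in both genotypes, 5 held the motif. Among the other windows, 2 of the 4 of genes higher in both genotypes held it, as did 2 of the 7 remaining windows, both of them windows of Rad51c, which was not measured. Genes of both directions thus had it, and the windows were not matched for base composition. A shorter HIF core motif, ACGTG or GCGTG, was in 18 of 30 windows (60.0%) and in 43.8% of all windows. It was in 9 of the 19 windows of lower genes (47.4%), 4 of the 4 of higher genes and 5 of the 7 remaining. The cell cycle homology region motif, TTTGAA or TTCGAA, was in 2 of 30 (6.67%) and in 19.2% of all windows. A match describes the letters in the window and is neither a binding site nor a cause.

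The 6 genes below are shown because an E2F motif lies upstream of their start. They include genes of all 5 pathways, both lower and higher at low oxygen. Each stretch is written 5′ to 3′ on the gene's strand up to the base before the start, with the motif in capitals. In Msh3 the capitals hold 2 overlapping matches, 1 on each strand.
Bard1 (chr1:71102973-71103191, minus strand): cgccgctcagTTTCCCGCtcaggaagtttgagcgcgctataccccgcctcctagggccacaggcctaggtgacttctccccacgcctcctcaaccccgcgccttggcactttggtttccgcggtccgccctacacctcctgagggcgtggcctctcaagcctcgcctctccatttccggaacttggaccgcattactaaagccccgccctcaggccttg
Brca2 (chr5:150522443-150522620, plus strand): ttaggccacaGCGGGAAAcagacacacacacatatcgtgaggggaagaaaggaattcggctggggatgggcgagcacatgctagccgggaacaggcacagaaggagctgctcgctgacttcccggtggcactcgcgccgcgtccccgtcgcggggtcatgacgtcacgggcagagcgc
Fancg (chr4:43010302-43010421, minus strand): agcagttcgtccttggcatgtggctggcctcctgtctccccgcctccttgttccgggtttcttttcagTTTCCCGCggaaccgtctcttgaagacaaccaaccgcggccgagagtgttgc
Msh3 (chr13:92355004-92355215, minus strand): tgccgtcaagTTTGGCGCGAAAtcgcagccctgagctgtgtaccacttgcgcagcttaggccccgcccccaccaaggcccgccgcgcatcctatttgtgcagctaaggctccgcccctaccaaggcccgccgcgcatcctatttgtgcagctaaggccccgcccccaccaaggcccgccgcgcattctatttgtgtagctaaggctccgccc
Xrcc6 (chr15:82016249-82016368, plus strand): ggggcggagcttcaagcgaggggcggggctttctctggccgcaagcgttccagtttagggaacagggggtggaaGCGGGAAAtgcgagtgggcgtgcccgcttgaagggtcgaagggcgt
Chek2 (chr5:110839821-110839982, plus strand): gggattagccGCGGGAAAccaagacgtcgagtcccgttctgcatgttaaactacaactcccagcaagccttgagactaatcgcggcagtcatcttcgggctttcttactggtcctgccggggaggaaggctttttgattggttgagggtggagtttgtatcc
Bard1, Brca2, Fancg, Xrcc6 and Chek2 were lower at low oxygen, and the brightest Msh3 probe was higher.

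At low oxygen most of the 33 genes were lower than in controls, in both genotypes. In the knockout 24 were lower, 5 were higher and 4 did not pass the threshold, at a limma adjusted p under 0.05. Among all genes, 18.3% were lower and 21.4% higher in that comparison. In wild type 23 were lower, 4 higher and 6 not past the threshold, against 18.1% lower and 20.5% higher among all genes. The median log2 change was -0.91 in the knockout and -0.83 in wild type, while the median of all genes was 0.03 in both.

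Starvation moved fewer of them and raised none past the threshold. In starved knockout cells 12 of 33 were lower, against 6.38% of all genes, and in starved wild-type cells also 12, against 6.02%. None was higher, where 7.13% and 6.49% of all genes were higher. The median log2 change of the 33 was -0.34 in the knockout and -0.25 in wild type, and that of all genes was 0.01 and 0.02. Low oxygen and starvation share their control samples within each genotype, so the 2 sets of changes are not independent. In samples of pooled cells, fewer cells of a type and less RNA per cell cannot be told apart.

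**Figure D1:**
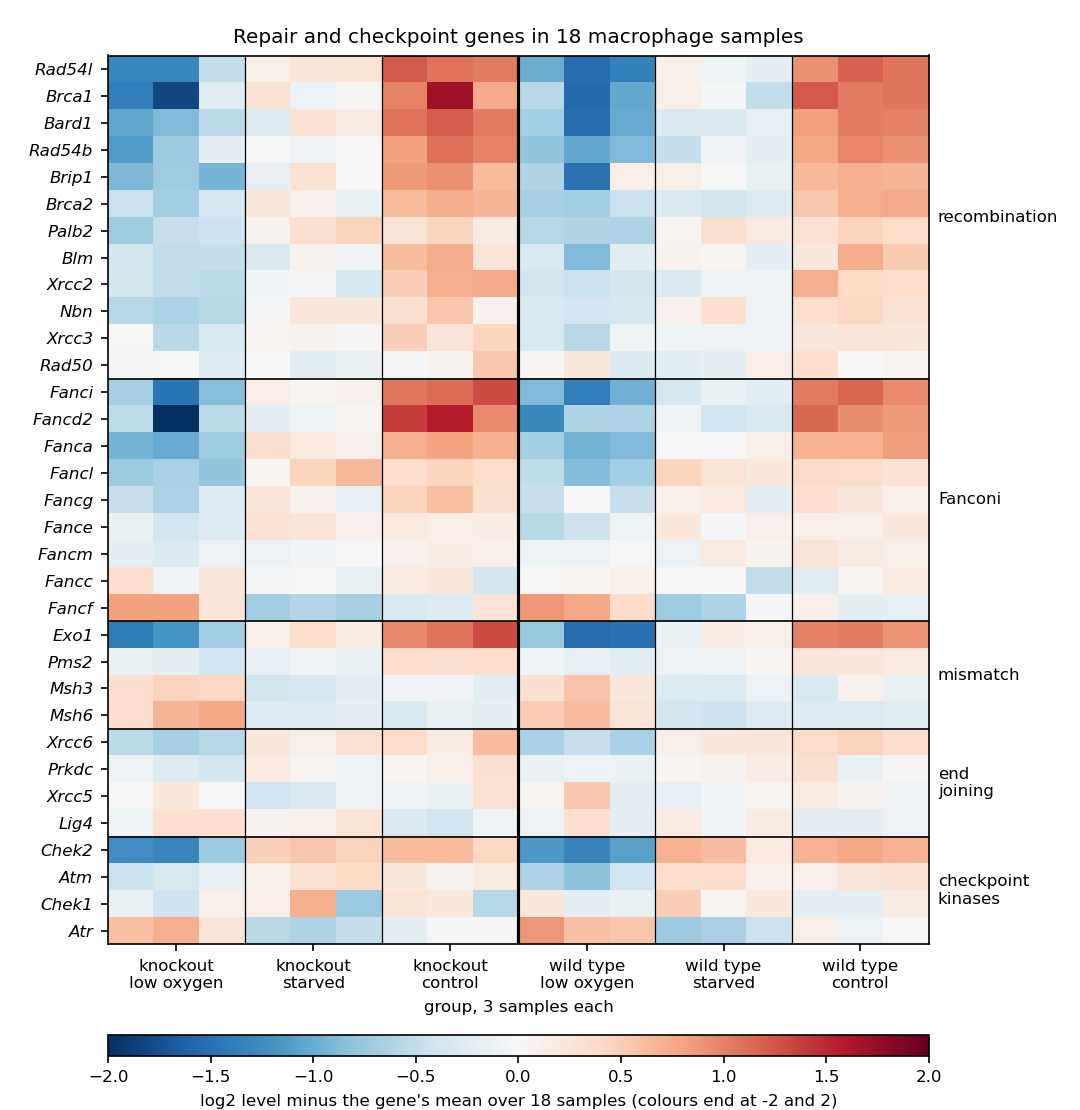
Log2 level of each of the 33 genes (rows, by pathway) in each of the 18 samples (columns, 6 groups of 3), shown as the difference from the gene's own mean over all samples. The 3 low-oxygen columns of both genotypes are blue for most rows, while Msh3, Msh6, Fancf and Atr are red there.

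Among the 12 tested members of homologous recombination, all but Rad50 fell at low oxygen. There 11 of 12 were lower in the knockout and 11 of 12 in wild type, with median log2 changes of -1.15 and -1.12. When starved, 6 of 12 were lower in each genotype, with medians of -0.70 and -0.67. None was higher in any of these comparisons. Among all genes 18.3% and 18.1% were lower at low oxygen in the knockout and wild type, and 6.38% and 6.02% under starvation.

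Rad54l, a motor protein that works in strand exchange, read -3.95, -3.96 and -3.14 in knockout cells at low oxygen and -2.54, -2.41 and -2.38 when starved, against -1.42, -1.56 and -1.61 in knockout controls. Wild-type levels were -3.65, -4.17 and -4.01 at low oxygen and -2.55, -2.74 and -2.85 when starved, against -1.74, -1.48 and -1.59 in controls. The 3 conditions did not overlap in either genotype, with starved samples between the others. Low oxygen lowered Rad54l 4.44-fold in the knockout (log2 -2.15 ± 0.19, SE of the fit, adjusted p 4.93e-07) and 5.07-fold in wild type (-2.34 ± 0.19, 2.23e-07). Starvation lowered it 1.89-fold in the knockout (-0.92, adjusted p 0.00423) and 2.16-fold in wild type (-1.11, 0.00107).

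Bard1, which pairs with Brca1 to form a ubiquitin ligase, read -2.49, -2.33 and -1.98 in knockout cells at low oxygen and -1.73, -1.16 and -1.29 when starved, against -0.36, -0.24 and -0.41 in controls. Wild-type levels were -2.14, -2.96 and -2.46 at low oxygen and -1.75, -1.74 and -1.62 when starved, against -0.63, -0.43 and -0.44 in controls. Controls stood above every stressed sample of their genotype. The fall at low oxygen was 3.81-fold in the knockout (log2 -1.93 ± 0.19, adjusted p 1.59e-06) and 4.06-fold in wild type (-2.02 ± 0.19, 1.05e-06). Under starvation it was 2.08-fold in the knockout and 2.30-fold in wild type (adjusted p 0.00167 and 0.000614). Of the other probes of Bard1, A_52_P616404 also fell at low oxygen (-2.38 and -2.05), though it was well above background in 6 of 18 samples. A_55_P2186644 did not pass the threshold in either genotype (-0.43 in the knockout and -0.20 in wild type).

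Brca1, the partner of Bard1 that promotes resection of the broken ends, was measured near background. Its level was -7.84, -8.28 and -6.70 in knockout cells at low oxygen and -6.16, -6.57 and -6.43 when starved, against -5.47, -4.77 and -5.71 in controls. Wild-type levels of Brca1 were -7.02, -8.01 and -7.49 at low oxygen and -6.33, -6.49 and -6.95 when starved, against -5.24, -5.44 and -5.39 in controls. It was well above background in 1 of 3 knockout samples at low oxygen, in 2 of 3 starved knockout samples, in 0 wild-type samples under either stress and in all controls. The fitted change at low oxygen was -2.29 in the knockout (adjusted p 0.000111) and -2.15 in wild type (0.000213), and under starvation -1.07 (0.0601) and -1.24 (0.0317). Because no stressed wild-type sample was well above background, a bound on the wild-type fall was computed: 1.77-fold at low oxygen and 2.08-fold when starved. Such a bound sets the mean of the bright group against the higher of the dim probe's own signal and the array's lowest signal well above background. It carries no error term and holds only for this background correction. With normexp background correction the low-oxygen change of Brca1 was -0.38 in each genotype, smaller than the bound, and neither call remained (adjusted p 0.636 and 0.633). The change in starved wild-type cells then turned to 0.31 (0.588). The starved wild-type call was lost when any 1 of the 6 samples was left out, with adjusted p from 0.0535 to 0.101.

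Rad50, which with Mre11 and Nbn forms the complex that binds broken ends, was the recombination gene that did not pass. Its level was 0.67, 0.71 and 0.44 in knockout cells at low oxygen and 0.70, 0.49 and 0.55 when starved, against 0.66, 0.77 and 1.25 in controls. Wild-type cells had 0.74, 0.91 and 0.42 at low oxygen and 0.50, 0.53 and 0.84 when starved, against 1.05, 0.69 and 0.76 in controls. The groups overlapped throughout, and no comparison passed the threshold (log2 -0.29, adjusted p 0.197, at low oxygen in the knockout and -0.14, 0.544, in wild type). A dimmer Rad50 probe of the same transcript did fall at low oxygen, by log2 -0.84 in the knockout and -0.77 in wild type (adjusted p 0.0027 and 0.00531), so the 2 probes disagree.

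Other genes of strand exchange fell at low oxygen in both genotypes. Rad54b, the paralog of Rad54l, averaged -3.74 ± 0.46 (SD, n = 3) in knockout cells at low oxygen and -3.08 ± 0.03 when starved, against -2.09 ± 0.15 in controls. In wild type it averaged -3.96 ± 0.11 at low oxygen and -3.30 ± 0.22 when starved, against -2.17 ± 0.11 in controls, and all 4 falls passed the threshold. A dimmer Rad54b probe was well above background in 7 of 18 samples, and its fitted low-oxygen values were -2.11 in the knockout and -2.52 in wild type. Brca2, which acts on resected DNA ahead of strand exchange, fell at low oxygen by log2 -1.19 in the knockout and -1.28 in wild type (adjusted p 1.59e-06 and 8.09e-07). When starved, Brca2 fell by -0.63 in the knockout and -0.99 in wild type (0.00198 and 6.26e-05). Xrcc2, which also acts in recombination, behaved likewise, at -1.11 and -0.89 under low oxygen and -0.79 and -0.66 under starvation, all past the threshold. A second, dimmer probe of Xrcc2 did not pass the threshold in any of these comparisons.

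A further set of 5 genes fell at low oxygen in both genotypes, and 1 call among them passed under starvation. Palb2, which bridges Brca1 and Brca2, was lower at low oxygen by -0.82 in the knockout and -0.97 in wild type (adjusted p 5.32e-05 and 1.17e-05). When starved it differed from controls by -0.02 (95% interval -0.26 to 0.23) and -0.19 (-0.43 to 0.06). Its dimmer probe passed at low oxygen in wild type (-1.01) and not in the knockout (-0.53, adjusted p 0.215). Nbn fell by -0.91 in the knockout and -0.71 in wild type at low oxygen, and Xrcc3, a further recombination gene, by -0.68 and -0.56. Neither passed the threshold under starvation. Brip1, a helicase that binds Brca1, fell by -1.65 in the knockout and -1.32 in wild type at low oxygen (adjusted p 2e-04 and 0.00133), and its starved values of -0.75 and -0.69 did not pass (0.0851 and 0.122). Blm, the helicase that resolves crossed recombination intermediates, fell by -0.98 and -0.96 at low oxygen. Starvation lowered Blm in the knockout by -0.64 (adjusted p 0.0294), which was lost without starved replicate 1 or 3 or control replicate 1 or 2 (adjusted p 0.0681 to 0.123). Its wild-type value under starvation was -0.52 (0.0815). Set directly against starvation, low oxygen did not differ past the threshold for Blm or Xrcc3 in either genotype, or for Brip1 in wild type (adjusted p 0.0814).

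**Figure D2:**
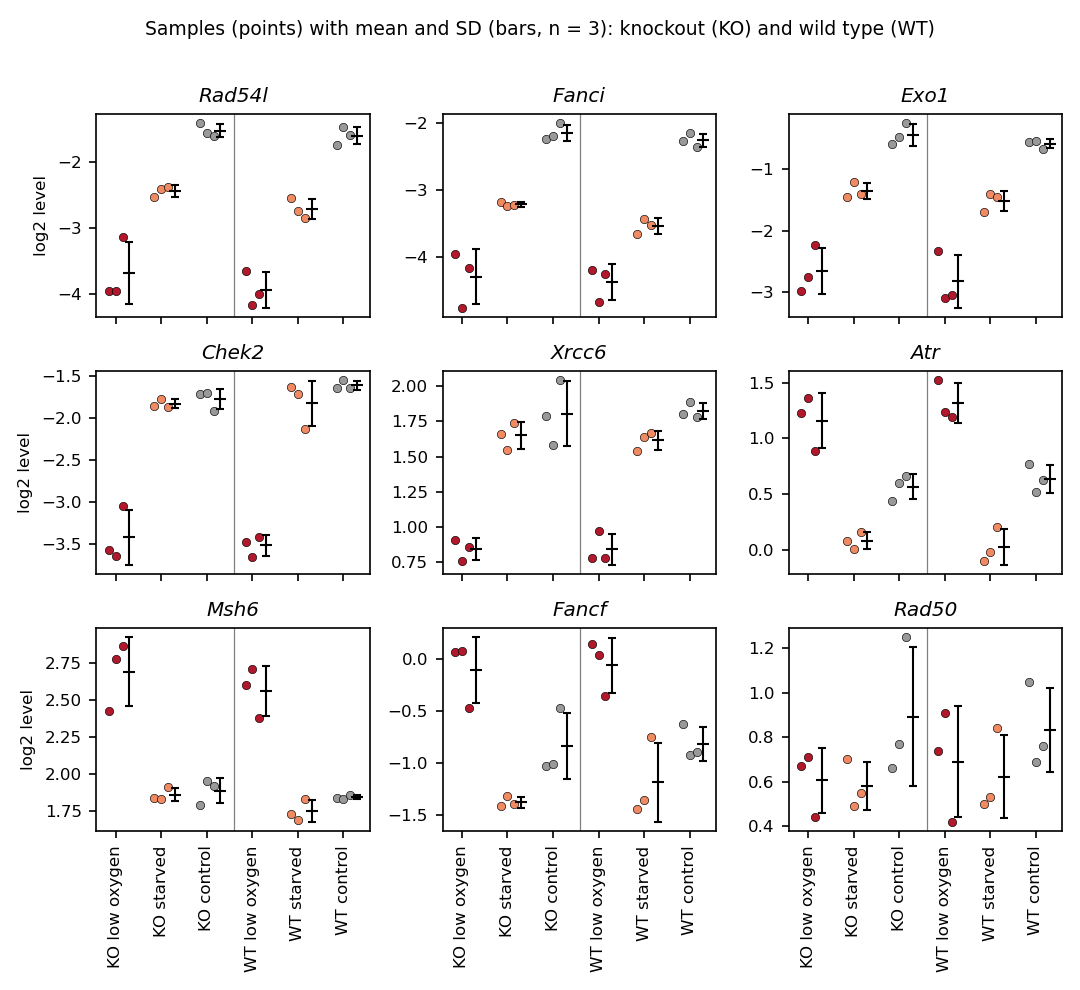
Log2 level of 9 genes in every sample (points), with the group mean and SD (bars, n = 3), knockout (KO) left of wild type (WT). Rad54l, Fanci and Exo1 show controls highest, starved samples between and low-oxygen samples lowest, whereas Chek2 and Xrcc6 are low at low oxygen and Atr and Msh6 are high there.

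In the Fanconi pathway 7 of 9 genes were lower at low oxygen and 1 was higher, in each genotype. Starvation lowered 3 of 9 in each. The median log2 change at low oxygen was -0.91 in the knockout and -0.53 in wild type, and under starvation -0.40 and -0.18. Of all genes, 18.3% were lower and 21.4% higher at low oxygen in the knockout, and 18.1% and 20.5% in wild type. Under starvation 6.38% of all genes were lower in the knockout and 6.02% in wild type.

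Fanci and Fancd2 form the pair that the Fanconi ubiquitin ligase modifies at a crosslink. Fanci read -3.96, -4.76 and -4.16 in knockout cells at low oxygen and -3.17, -3.24 and -3.22 when starved, against -2.24, -2.19 and -2.0 in controls. Wild-type cells had -4.19, -4.68 and -4.26 at low oxygen and -3.66, -3.43 and -3.52 when starved, against -2.26, -2.15 and -2.35 in controls. No 2 conditions overlapped within a genotype. Fanci fell 4.44-fold in the knockout (log2 -2.15 ± 0.17, adjusted p 2.13e-07) and 4.36-fold in wild type (-2.12 ± 0.17, 2.51e-07) at low oxygen. Under starvation it fell 2.09-fold in the knockout and 2.43-fold in wild type (0.000771 and 0.000175).

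Fancd2 was dim, at -6.23, -7.97 and -6.26 in knockout cells at low oxygen and -5.89, -5.80 and -5.68 when starved, against -4.33, -4.14 and -4.77 in controls. Wild-type levels of Fancd2 were -7.00, -6.31 and -6.34 at low oxygen and -5.78, -6.12 and -6.04 when starved, against -4.56, -4.79 and -4.86 in controls. It was well above background in 2 of 3 samples of each stressed group except wild-type low oxygen, where it was in 0, and in all controls. The fitted change at low oxygen was -2.41 in the knockout (adjusted p 7.33e-05) and -1.82 in wild type (0.000891). The bound on the wild-type fall, which was not tested, was 2.65-fold. With normexp background correction the low-oxygen change of Fancd2 was -0.55 in the knockout and -0.33 in wild type, smaller than that bound, and neither passed (0.389 and 0.681). Its starved changes of -1.38 and -1.24 passed the threshold (0.0169 and 0.0311). The knockout call was lost without starved replicate 1 or control replicate 1 or 2 (adjusted p 0.0528 to 0.0707). The wild-type call was lost without any 1 of its 6 samples (0.0599 to 0.0979).

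The remaining members are subunits of the Fanconi core complex or the translocase Fancm that recruits it. Fanca read -2.16, -2.23 and -1.94 in knockout cells at low oxygen and -0.90, -1.03 and -1.14 when starved, against -0.50, -0.43 and -0.52 in controls. Wild-type values were -1.90, -2.17 and -2.11 at low oxygen and -1.21, -1.21 and -1.11 when starved, against -0.55, -0.53 and -0.39 in controls. The conditions were fully separate in both genotypes. Fanca fell 3.09-fold in the knockout and 2.97-fold in wild type at low oxygen (adjusted p 1.65e-08 and 2.69e-08). Starvation lowered it 1.46-fold in the knockout and 1.61-fold in wild type (0.00214 and 0.000348). Fancl, the ubiquitin ligase subunit, averaged -1.09 ± 0.07 (SD, n = 3) in knockout cells at low oxygen and 0.01 ± 0.31 when starved, against 0.01 ± 0.04 in controls. In wild type Fancl averaged -1.05 ± 0.17 at low oxygen and -0.05 ± 0.12 when starved, against -0.02 ± 0.05 in controls. Its fall at low oxygen was 2.14-fold in the knockout and 2.04-fold in wild type, while the starved differences were 0.00 (95% interval -0.28 to 0.28) and -0.03 (-0.31 to 0.25). A second Fancl probe fell at low oxygen by -0.67 in the knockout and -0.82 in wild type.

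Smaller falls at low oxygen were those of Fancg, Fance and Fancm. Fancg fell by log2 -0.91 in the knockout (adjusted p 0.000284) and by -0.53 in wild type (0.0139) and the wild-type call was lost without wild-type low-oxygen replicate 1 or 3 (0.0595 and 0.0559). Fance fell by -0.41 and -0.51, and its dimmer probe by -0.85 and -0.50. Fancm fell by -0.31 in the knockout (0.0122) and -0.27 in wild type (0.0288). The first was lost without knockout low-oxygen replicate 2 (0.0576), and the second without wild-type control replicate 1 or 2 or wild-type low-oxygen replicate 1 or 2 (0.0618 to 0.0974). None of the 3 genes passed the threshold under starvation.

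Fancf, an adaptor subunit of the core complex, went the other way at low oxygen. It read 0.07, 0.08 and -0.47 in knockout cells at low oxygen and -1.42, -1.32 and -1.40 when starved, against -1.03, -1.01 and -0.47 in controls. Wild-type values were 0.14, 0.04 and -0.36 at low oxygen and -1.45, -1.36 and -0.75 when starved, against -0.63, -0.93 and -0.90 in controls. In the knockout 1 low-oxygen sample and 1 control sample read almost alike, while the wild-type groups were apart. Fancf was 1.66-fold higher in the knockout (log2 0.73 ± 0.21, adjusted p 0.0122) and 1.69-fold higher in wild type (0.76 ± 0.21, 0.0103). The knockout call was lost without low-oxygen replicate 2 or control replicate 1 or 2 (0.0520 to 0.0539). Under starvation Fancf differed by -0.54 in the knockout and -0.37 in wild type, and neither passed (0.115 and 0.322).

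Fancc, a core subunit, did not pass the threshold at its brightest probe. It read -2.39, -2.78 and -2.50 in knockout cells at low oxygen and -2.76, -2.74 and -2.87 when starved, against -2.55, -2.50 and -3.10 in controls. Wild-type cells read -2.73, -2.68 and -2.63 at low oxygen and -2.74, -2.71 and -3.21 when starved, against -2.95, -2.67 and -2.54 in controls. All groups overlapped with their controls, and the low-oxygen differences were 0.16 (95% interval -0.21 to 0.53) and 0.04 (-0.33 to 0.41). A second Fancc probe, for another transcript accession, rose at low oxygen by log2 1.08 in the knockout and 1.21 in wild type (adjusted p 0.00148 and 0.000672).

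Of the 4 mismatch repair genes, 2 were lower and 2 higher at low oxygen in each genotype, and under starvation 2 were lower in each. The shares of all genes at low oxygen were 18.3% lower and 21.4% higher in the knockout, and 18.1% and 20.5% in wild type. Under starvation 6.38% and 6.02% of all genes were lower. Exo1 and Pms2 were the lower ones, and Msh6 and the brightest probe of Msh3 the higher ones.

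Exo1, the exonuclease that removes the faulty strand, read -2.98, -2.75 and -2.24 in knockout cells at low oxygen and -1.45, -1.21 and -1.40 when starved, against -0.60, -0.48 and -0.26 in controls. Wild-type values were -2.33, -3.09 and -3.05 at low oxygen and -1.70, -1.41 and -1.45 when starved, against -0.56, -0.54 and -0.67 in controls. The 3 conditions were separate in both genotypes. Exo1 fell 4.63-fold in the knockout and 4.69-fold in wild type at low oxygen (adjusted p 7.05e-07 and 6.92e-07), and 1.87-fold and 1.90-fold when starved (0.00707 and 0.0062).

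Pms2, which takes part in cutting the strand, read -1.82, -1.87 and -2.09 in knockout cells at low oxygen and -1.86, -1.77 and -1.84 when starved, against -1.34, -1.37 and -1.32 in controls. In wild type it read -1.78, -1.86 and -1.91 at low oxygen and -1.81, -1.80 and -1.65 when starved, against -1.43, -1.47 and -1.51 in controls. Controls were above all stressed samples in both genotypes, while the 2 stresses overlapped. The falls at low oxygen were -0.58 in the knockout (adjusted p 6.77e-05) and -0.38 in wild type (0.00248), and under starvation -0.48 (0.00149) and -0.28 (0.0401). The last was lost when 5 of its 6 samples were left out singly, all but starved replicate 3 (0.0796 to 0.152). A second Pms2 probe fell in all 4 comparisons.

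Msh6, which recognises single mismatches, read 2.43, 2.78 and 2.87 in knockout cells at low oxygen and 1.84, 1.83 and 1.91 when starved, against 1.79, 1.95 and 1.92 in controls. Wild-type levels were 2.6, 2.71 and 2.38 at low oxygen and 1.73, 1.69 and 1.83 when starved, against 1.84, 1.83 and 1.86 in controls. Low-oxygen samples stood above all others, and the starved samples touched or overlapped the controls. Msh6 rose 1.75-fold in the knockout and 1.65-fold in wild type (adjusted p 4.46e-05 and 0.000139). The starved differences were -0.03 and -0.09 (0.916 and 0.713).

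Msh3, which recognises larger loops, read 0.18, 0.29 and 0.27 in knockout cells at low oxygen and -0.52, -0.48 and -0.37 when starved, against -0.22, -0.21 and -0.38 in controls. Wild-type levels were 0.17, 0.42 and 0.07 at low oxygen and -0.42, -0.43 and -0.27 when starved, against -0.46, -0.07 and -0.30 in controls. Low-oxygen samples were highest in both genotypes at this probe, the brightest of 3. The rise was 1.44-fold in the knockout and 1.41-fold in wild type (adjusted p 0.00176 and 0.00259). The other probes for the same transcript gave -0.23 and -0.12 in the knockout and 0.01 and 0.28 in wild type, none past the threshold, so the rise of Msh3 rests on 1 probe. The mean over the 3 probes was 0.06 in the knockout and 0.26 in wild type (adjusted p 0.806 and 0.203).

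Of the 4 end joining genes, 2 were lower and 1 higher at low oxygen in the knockout. In wild type 1 was lower and 0 higher, and under starvation 0 of 4 passed in either genotype. Among all genes 18.3% were lower and 21.4% higher at low oxygen in the knockout, and 18.1% and 20.5% in wild type.

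Xrcc6, the Ku70 subunit of the ring that binds broken ends, read 0.91, 0.76 and 0.86 in knockout cells at low oxygen and 1.66, 1.55 and 1.74 when starved, against 1.79, 1.58 and 2.04 in controls. Wild-type levels were 0.78, 0.97 and 0.78 at low oxygen and 1.54, 1.64 and 1.67 when starved, against 1.80, 1.89 and 1.78 in controls. Low-oxygen samples lay below all other samples of their genotype. Xrcc6 fell 1.94-fold in the knockout and 1.97-fold in wild type (adjusted p 6.46e-06 and 5.60e-06). The starved differences were -0.15 and -0.21 (0.438 and 0.282).

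Xrcc5, the Ku80 partner of Xrcc6, read -2.54, -2.32 and -2.52 in knockout cells at low oxygen and -2.93, -2.82 and -2.61 when starved, against -2.6, -2.66 and -2.22 in controls. In wild type it read -2.47, -1.99 and -2.73 at low oxygen and -2.69, -2.58 and -2.47 when starved, against -2.37, -2.46 and -2.6 in controls. The groups overlapped, and the low-oxygen differences were 0.03 (95% interval -0.33 to 0.39) and 0.08 (-0.28 to 0.44). The 2 subunits of the Ku ring thus gave different calls at these probes, and their difference was not tested.

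Prkdc, the kinase that Ku recruits, read -2.71, -2.88 and -2.98 in knockout cells at low oxygen and -2.42, -2.56 and -2.71 when starved, against -2.57, -2.49 and -2.29 in controls. Wild-type values were -2.75, -2.72 and -2.74 at low oxygen and -2.58, -2.54 and -2.47 when starved, against -2.29, -2.74 and -2.59 in controls. It fell by log2 -0.41 at low oxygen in the knockout (adjusted p 0.0150), where the groups were apart, and the wild-type value was -0.20 (0.216), where they overlapped. The knockout call was lost without control replicate 3 or low-oxygen replicate 3 (0.0631 and 0.0630), and on slide 5 the difference was 0.03.

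Lig4, the ligase that seals the ends, read -0.94, -0.52 and -0.52 in knockout cells at low oxygen and -0.78, -0.74 and -0.58 when starved, against -1.13, -1.25 and -0.94 in controls. Wild-type levels were -0.97, -0.52 and -1.04 at low oxygen and -0.69, -0.91 and -0.69 when starved, against -1.04, -1.04 and -0.97 in controls. Low-oxygen and control samples met or overlapped in both genotypes. It rose by 0.45 in the knockout at low oxygen (adjusted p 0.0246), and the wild-type value was 0.18 (0.372). The knockout call was lost without low-oxygen replicate 2 or 3 or control replicate 1 or 2 (0.0640 to 0.0988).

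**Figure D3:**
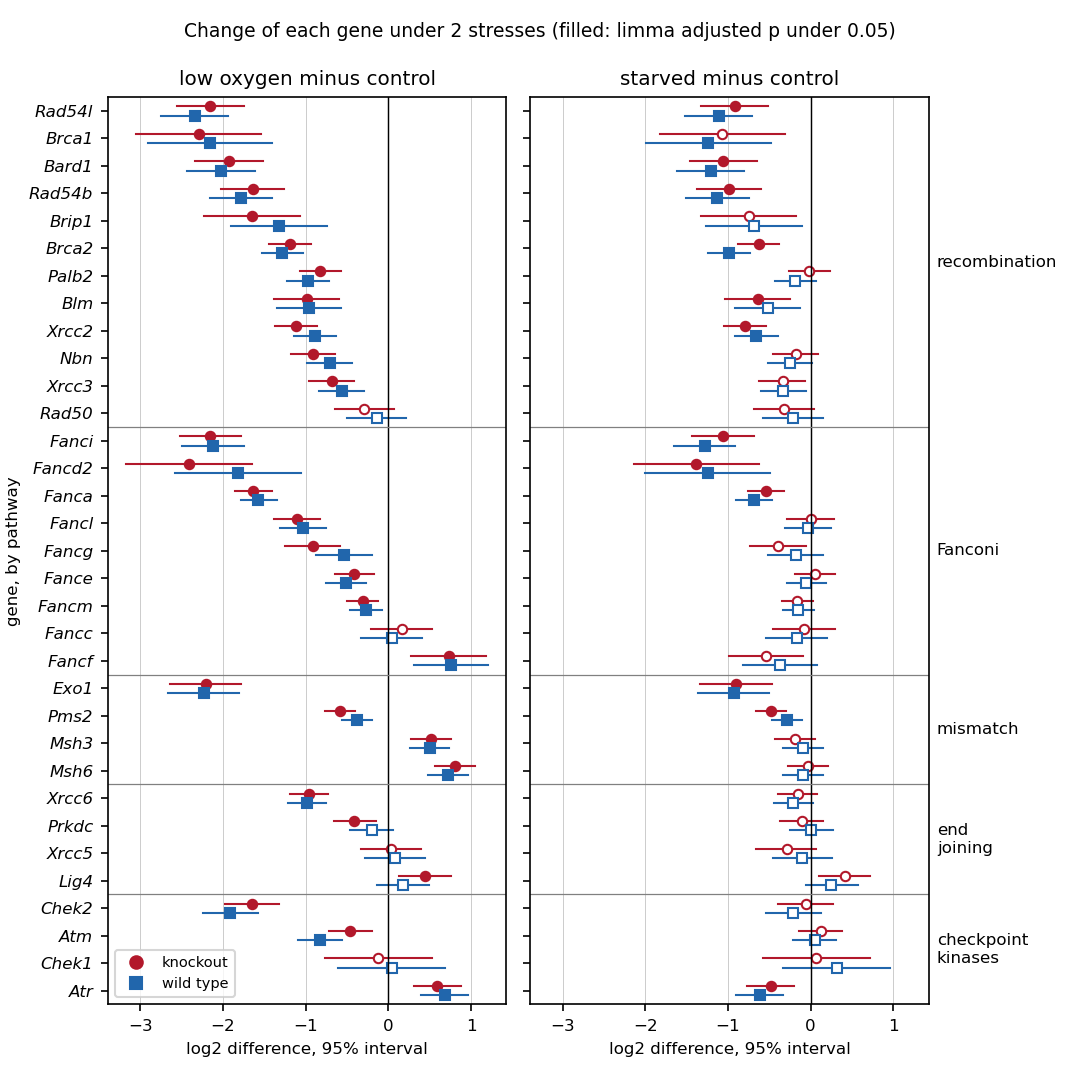
Log2 difference from control for each gene at low oxygen (left) and under starvation (right), knockout as circles and wild type as squares, with 95% intervals of the limma fit; filled symbols passed an adjusted p of 0.05. Most filled symbols lie left of 0 at low oxygen, and starved values lie nearer to 0.

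The 4 checkpoint kinases gave different calls. At low oxygen 2 were lower and 1 higher in each genotype, and under starvation 1 was lower in each. All genes gave 18.3% lower and 21.4% higher at low oxygen in the knockout, and 18.1% and 20.5% in wild type. Their lower shares under starvation were 6.38% and 6.02%.

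Chek2, the kinase that Atm activates, read -3.57, -3.65 and -3.05 in knockout cells at low oxygen and -1.85, -1.77 and -1.87 when starved, against -1.71, -1.70 and -1.91 in controls. Wild-type cells read -3.48, -3.66 and -3.42 at low oxygen and -1.63, -1.71 and -2.13 when starved, against -1.64, -1.55 and -1.64 in controls. Low-oxygen samples were far below the rest, and starved samples overlapped with controls. Chek2 fell 3.14-fold in the knockout and 3.76-fold in wild type at low oxygen (adjusted p 8.86e-07 and 2.15e-07). The starved differences were -0.06 (95% interval -0.39 to 0.27) and -0.21 (-0.54 to 0.12).

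Atm, which senses double-strand breaks, read -2.92, -2.80 and -2.65 in knockout cells at low oxygen and -2.36, -2.18 and -2.09 when starved, against -2.27, -2.42 and -2.30 in controls. Wild-type values were -3.10, -3.30 and -2.88 at low oxygen and -2.14, -2.13 and -2.38 when starved, against -2.39, -2.22 and -2.19 in controls. Low-oxygen samples were lowest in both genotypes, and starved samples overlapped with controls. Atm fell 1.37-fold in the knockout (adjusted p 0.00752) and 1.77-fold in wild type (8.38e-05), and its second probe fell in both (-0.83 and -0.69). The starved differences were 0.12 and 0.05 (0.620 and 0.874).

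Atr, which senses single-stranded DNA at stalled forks, was the only kinase of the 4 that changed in opposite directions under the 2 stresses. It read 1.23, 1.36 and 0.89 in knockout cells at low oxygen and 0.08, 0.01 and 0.16 when starved, against 0.44, 0.60 and 0.66 in controls. Wild-type values were 1.52, 1.24 and 1.19 at low oxygen and -0.10, -0.02 and 0.21 when starved, against 0.77, 0.52 and 0.63 in controls. No 2 conditions overlapped within a genotype. At low oxygen Atr rose 1.51-fold in the knockout and 1.60-fold in wild type (adjusted p 0.00244 and 0.000965). Starvation lowered it 1.4-fold in the knockout and 1.53-fold in wild type (0.0249 and 0.00627). The starved knockout call was lost without starved replicate 1 or 2 or control replicate 2 or 3 (0.0652 to 0.0867).

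Chek1, the kinase that Atr activates, was near background. It read -6.40, -6.66 and -6.15 in knockout cells at low oxygen and -6.11, -5.53 and -6.99 when starved, against -5.98, -6.04 and -6.82 in controls. Wild-type cells read -6.02, -6.42 and -6.38 at low oxygen and -5.76, -6.19 and -6.04 when starved, against -6.42, -6.45 and -6.09 in controls. All groups overlapped. It was well above background in 2 of 3 samples of each knockout group, in 0 of 3 wild-type samples at low oxygen, 2 of 3 starved and 1 of 3 controls, so a change of Chek1 was not detectable at this signal.

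Setting low oxygen directly against starvation tests where the 2 stresses differed, with no shared control. In the knockout 19 of 33 genes were lower at low oxygen than when starved and 4 were higher, where 17.9% of all genes were lower, 19.2% higher and 37.1% past the threshold in either direction. In wild type 13 were lower and 4 higher, where 18.3% of all genes were lower, 19.8% higher and 38.1% past it in either direction. The wild-type low-oxygen and starved arrays shared 1 slide of 5. With slide as a block, the wild-type count past the threshold was 21, with Brca1 (-1.47), Brca2 (-0.42), Chek1 (-0.80) and Xrcc5 (0.42) gained. Of these, Brca1 was well above background in 0 samples of either group, and Chek1 in 0 at low oxygen and 2 when starved. The values of Brca1 and Chek1 thus rest on signals near background. In the knockout 20 passed with slide as a block, with Brip1, Fancd2 and Xrcc2 lost. Same-numbered knockout samples at low oxygen and starved deviated together, and with the replicate number as a block Xrcc2 was lost (adjusted p 0.0615) and Xrcc3 gained (0.0414). Chek2 differed most among the genes that were lower, at 3.01-fold in the knockout (log2 -1.59 ± 0.15) and 3.25-fold in wild type (-1.70 ± 0.15). Exo1 was 2.47-fold and 2.46-fold lower, and Rad54l 2.35-fold lower in each. Fancl was 2.14-fold lower in the knockout and 2.0-fold in wild type, and Palb2 1.74-fold and 1.72-fold. The 4 genes that were higher at low oxygen than when starved were Fancf, Msh3, Msh6 and Atr in both genotypes. Fancf was 2.41-fold higher in the knockout and 2.19-fold in wild type, and Atr 2.11-fold and 2.44-fold. The differences of Pms2 were -0.11 (95% interval -0.29 to 0.08) in the knockout and -0.10 (-0.28 to 0.08) in wild type.

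Several of these direct calls rested on single samples. Fancd2 (-1.03 in the knockout) was lost without low-oxygen replicate 2, at -0.45, and without any 1 starved replicate, and on slide 3 it was 0.55. Xrcc2 in the knockout (-0.32, adjusted p 0.0497) was lost without any low-oxygen replicate and without starved replicate 1 or 2 (0.0522 to 0.171). Brca1 in the knockout was lost without low-oxygen replicate 2 or starved replicate 1 (0.0769 and 0.0504), and Brip1 without starved replicate 2 (0.0744). Fancg in the knockout was lost without low-oxygen replicate 2 or starved replicate 1 or 2 (0.0501 to 0.0823). Nbn in wild type was lost without starved replicate 2 (0.0621). Others were gained: without wild-type low-oxygen replicate 3, Brip1 passed at -1.02, against -0.63 with it.

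**Figure D4:**
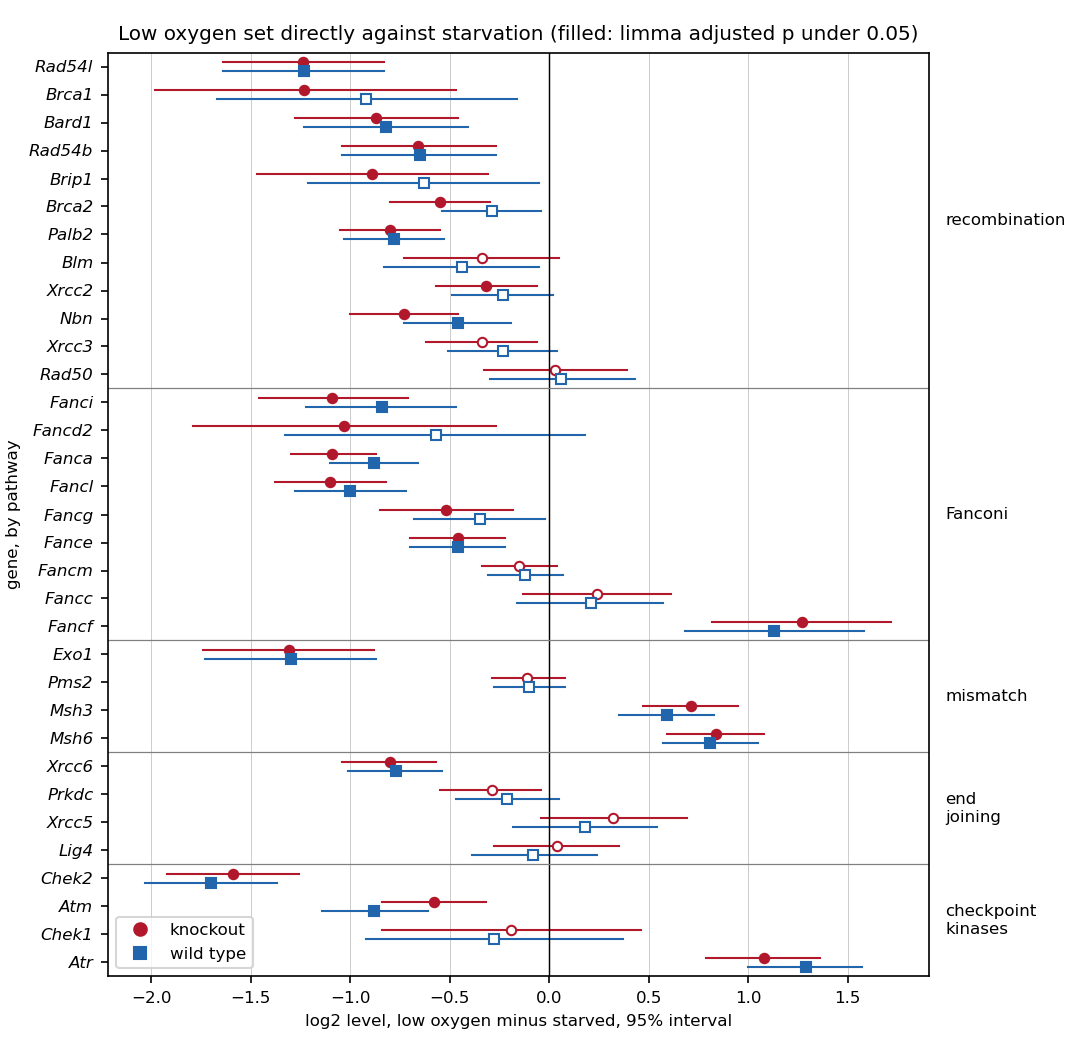
Log2 level at low oxygen minus starved for each gene, knockout as circles and wild type as squares, with 95% intervals of the limma fit and filled symbols where the adjusted p was under 0.05. Fancf, Msh3, Msh6 and Atr lie right of 0 in both genotypes, and Chek2 lies furthest left.

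Knockout and wild-type cells did not differ past the threshold for any of the 33 genes in any condition, by limma, and neither did any of the 20813 genes. Knockout minus wild type ranged from -0.27 to 0.30 over the 33 genes at low oxygen, from -0.21 to 0.37 when starved and from -0.16 to 0.32 in controls. At an unadjusted p under 0.05, 1 of 33 genes differed at low oxygen, 1 when starved and 0 in controls, where 1.70%, 1.89% and 1.39% of all genes did. The gene at low oxygen was Atm, higher by 0.30 (95% interval 0.04 to 0.56, unadjusted p 0.0256, adjusted p 1). The gene when starved was Brca2, which read -1.44, -1.57 and -1.80 in knockout cells, against -1.95, -2.03 and -1.94 in wild-type cells. The 3 knockout samples of Brca2 were above the 3 wild-type samples, by 0.37 on average (0.12 to 0.62, unadjusted p 0.00637, adjusted p 1).

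How far such a comparison can see depends on the gene. For Fanca at low oxygen the interval of knockout minus wild type was -0.27 to 0.16, and for Xrcc6 it was -0.24 to 0.23. For the dim Brca1 it was -0.86 to 0.65, and for Fancd2 -1.03 to 0.49, so differences of that size were not detectable there. The response to low oxygen differed between the genotypes past the threshold for 0 of 33 genes, and so did the response to starvation. At an unadjusted p under 0.05 the counts were also 0 and 0, where 1.11% and 1.04% of all genes reached it. The response of Atm to low oxygen differed by 0.37 (95% interval 0.00 to 0.74, unadjusted p 0.051). That of Brca2 to starvation was 0.35 (0.00 to 0.71, unadjusted p 0.0503).

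A list of 101 other repair and checkpoint genes, of which 100 were tested, moved in the same direction on balance. At low oxygen 47 of 100 were lower and 13 higher in the knockout, and 46 lower and 10 higher in wild type. Their median log2 change was -0.31 in each, smaller than that of the 33 genes. Under starvation 25 were lower and 6 higher in the knockout, and 29 lower and 3 higher in wild type. Among all genes, starvation gave 6.38% lower and 7.13% higher in the knockout, and 6.02% and 6.49% in wild type.

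The low-oxygen counts stand beside 18.3% lower and 21.4% higher among all genes in the knockout, and 18.1% and 20.5% in wild type. Of 19 other recombination genes, 11 were lower and 3 higher in the knockout, and 12 lower and 2 higher in wild type, at low oxygen. Their summed level was 79.1 to 89.3 in knockout cells at low oxygen, against 75.7 to 88.9 in controls, and these ranges overlapped. Psmc3ip, a cofactor of strand exchange, fell 4.77-fold in the knockout and 5.0-fold in wild type, and Rad51ap1, an accessory factor of recombination, 3.93-fold and 4.02-fold. Of 10 other Fanconi genes, 5 were lower and 0 higher in each genotype. Among them the core subunit Fancb fell 3.22-fold in the knockout and 3.24-fold in wild type, and Uhrf1 5.08-fold and 4.94-fold. Of 19 other checkpoint genes, 10 were lower in the knockout and 11 in wild type, and 0 were higher. Clspn, the adaptor that links Atr to Chek1, fell 4.29-fold and 4.73-fold, and Timeless, of the fork protection complex, 3.66-fold and 3.83-fold.

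The counts of the next lists at low oxygen stand beside the same shares of all genes. These were 18.3% lower and 21.4% higher in the knockout, and 18.1% and 20.5% in wild type. In base excision repair 12 of 23 genes were lower and 4 higher in the knockout, and 11 lower and 3 higher in wild type. Fen1, the flap endonuclease that also works in replication, fell 2.87-fold in the knockout and 3.01-fold in wild type, and the glycosylase Mutyh 2.35-fold and 2.24-fold. Nucleotide excision repair, which removes bulky lesions, had 5 of 18 genes lower and 3 higher in the knockout, and 3 lower and 2 higher in wild type, with medians of -0.10 and 0.01. There Gtf2h4, a subunit of the transcription factor that opens the lesion, fell 1.44-fold in the knockout and 1.46-fold in wild type. In mismatch repair, 3 of the other 4 genes were lower and 1 higher in each genotype. Among these Mlh3 rose 1.78-fold in the knockout and 1.90-fold in wild type. Of 7 other end joining genes, 1 was lower and 2 higher in each genotype. Polq, the polymerase of an alternative end joining route, fell 3.39-fold and 3.95-fold, and Polm, a polymerase that fills gaps at joined ends, rose 3.01-fold and 3.1-fold.

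**Figure D5:**
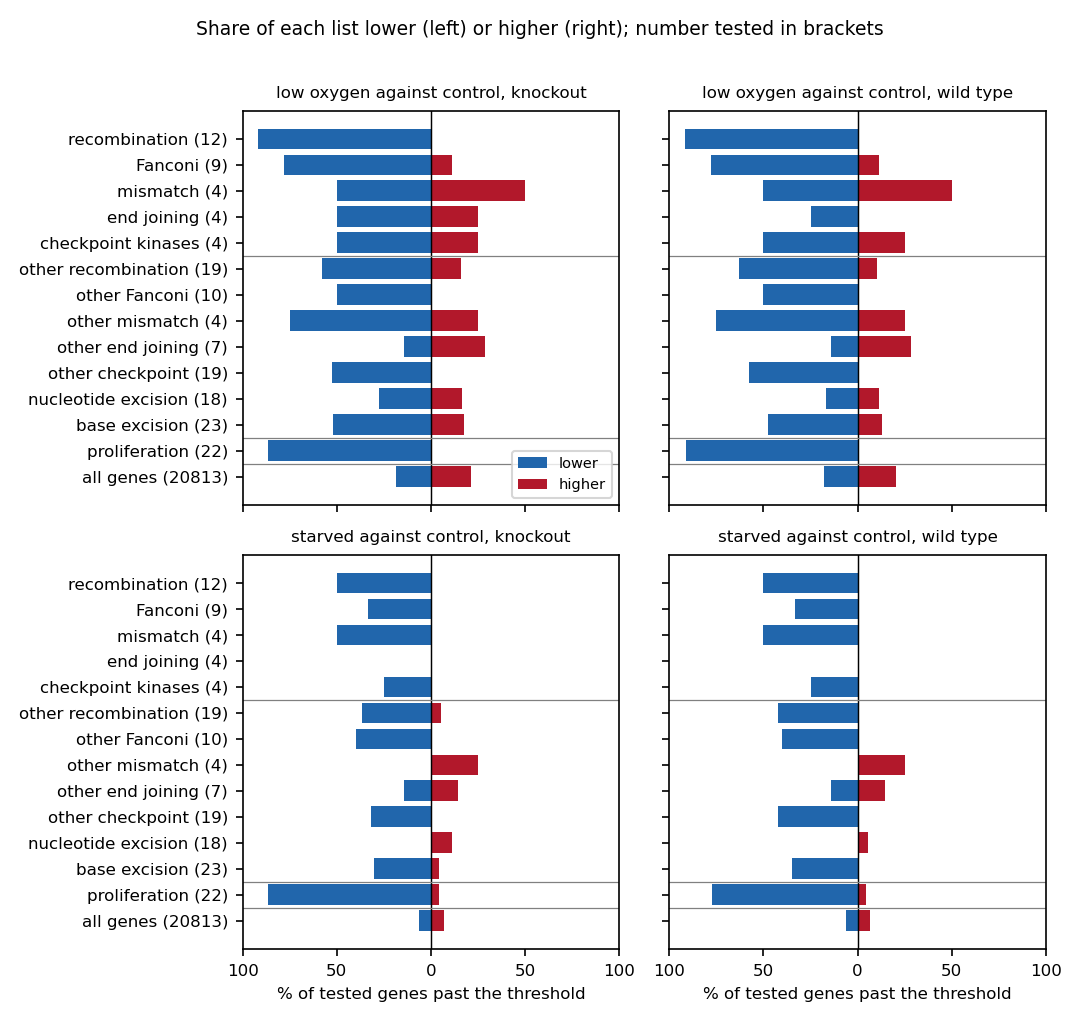
Share of the tested genes of each list (number in brackets) that were lower (bars to the left) or higher (bars to the right) than controls at a limma adjusted p under 0.05, for each stress and genotype. The recombination and proliferation lists have the longest bars to the left at low oxygen, and the bars of all genes reach about equally far on both sides.

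Genes of proliferation fell alongside. Of 22 on that list, 19 were lower in the knockout and 20 in wild type at low oxygen, with median log2 changes of -1.60 and -1.63. Mcm2, a subunit of the replicative helicase, fell 4.85-fold in the knockout and 4.24-fold in wild type, and Mcm5 6.43-fold and 6.42-fold. Starved, 19 of 22 were lower in the knockout and 17 in wild type, with medians of -0.93 and -0.97. The lower shares of all genes were 18.3% and 18.1% at low oxygen and 6.38% and 6.02% when starved, in the knockout and wild type. The summed level of the list, as signal relative to the 75th percentile, was 46.6 to 59.2 in knockout cells at low oxygen and 68.9 to 72.6 when starved, against 103 to 111 in knockout controls. In wild type the sum was 45.7 to 53.1 at low oxygen and 63.9 to 72.2 when starved, against 99.8 to 103 in controls. The proliferation list thus ran low oxygen, starved, control from lowest to highest, with no overlap, as Rad54l, Bard1, Fanci, Fanca and Exo1 did. Its part in the changes of the repair genes was not tested.

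Markers of other cells that a marrow culture can hold also moved. The summed level of 9 myeloid progenitor markers was 1.84 to 1.92 in knockout cells at low oxygen and 2.55 to 3.26 when starved, against 2.32 to 2.83 in controls. Wild-type sums were 1.59 to 2.01 at low oxygen and 2.58 to 3.60 when starved, against 1.96 to 3.92 in controls. For 6 lymphocyte markers the sums were 5.33 to 6.53 in knockout cells at low oxygen and 8.80 to 9.50 when starved, against 8.55 to 10.3 in controls. In wild-type cells these were 5.31 to 6.18 at low oxygen and 7.21 to 8.04 when starved, against 8.29 to 9.42 in controls. The summed level of the 10 macrophage markers was 338 to 376 in knockout cells at low oxygen and 285 to 322 when starved, against 270 to 304 in controls. Wild-type sums of these were 377 to 409 at low oxygen and 344 to 377 when starved, against 321 to 367 in controls. Macrophage sums were thus lower in knockout than in wild-type cells in each condition, without overlap, and this difference was not tested. Starved lymphocyte sums lay below controls in wild type and overlapped them in the knockout. At low oxygen the lymphocyte sums were below and the macrophage sums above those of controls in both genotypes. The progenitor sums lay below in the knockout and overlapped in wild type. By the test, 3 of 9 progenitor markers were lower and 1 higher at low oxygen in the knockout, and 6 lower and 2 higher in wild type. Among all genes 18.3% were lower and 21.4% higher there in the knockout, and 18.1% and 20.5% in wild type. Only 4 of 9 progenitor, 3 of 6 lymphocyte and 1 of 3 erythroid markers were well above background in all 18 samples. So were 6 of 9 neutrophil, 3 of 4 dendritic and 7 of 8 stromal markers. For neutrophil markers, of which 9 of 12 were tested, the sums were 20.9 to 31.0 in knockout cells at low oxygen and 11.9 to 17.9 when starved, against 19.0 to 31.2 in controls. In wild type they were 24.3 to 34.1 at low oxygen and 17.5 to 23.5 when starved, against 28.7 to 31.8 in controls. The 3 tested erythroid markers summed to 0.0672 to 0.0858 in knockout cells at low oxygen and 0.093 to 0.105 when starved, against 0.19 to 0.307 in controls. Wild-type erythroid sums were 0.0736 to 0.111 at low oxygen and 0.0744 to 0.098 when starved, against 0.107 to 0.288 in controls. The 4 tested dendritic markers summed to 71.6 to 93.0 in knockout and 78.5 to 92.9 in wild-type cells at low oxygen, against 63.6 to 76.6 and 53.6 to 88.0 in controls. The 8 tested stromal markers summed to 3.1 to 4.37 in knockout cells at low oxygen and 2.58 to 3.66 when starved, against 3.85 to 4.85 in controls. Wild-type stromal sums were 3.58 to 4.59 at low oxygen and 2.15 to 3.41 when starved, against 3.97 to 4.62 in controls, so starved sums lay below controls in both genotypes. The part of these cells in the repair results was not tested.

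The 20 arrays lay on 5 slides, and every slide held 4 arrays of several groups. Within slides the median change of the 33 genes at low oxygen was -0.76, -0.93 and -0.84 on slides 1, 3 and 5, which held both knockout groups, and -0.83 on the slide that held both wild-type groups. The knockout arrays of slide 5 are second arrays of samples already on slides 1 and 3, not further replicates. For starvation it was -0.32, -0.31 and -0.42 in the knockout and -0.31, -0.33 and -0.33 in wild type. On each of these slides every gene past the threshold kept its sign, except Fancm and Prkdc on slide 5 for low oxygen in the knockout. Knockout minus wild type had medians of 0.11, 0 and -0.12 at low oxygen on 3 slides, 0.10 when starved on 1 slide, and 0.03 and 0.01 in controls on 2 slides. Results were also computed without the 3 samples named at the start, which are not the least correlated of the series. Then 24 genes were lower at low oxygen in the knockout and 22 in wild type, and under starvation 10 and 9. Exo1 in starved knockout cells then had an adjusted p of 0.054, and Brca1, Fancd2 and Pms2 in starved wild-type cells and Atr in starved knockout cells were also lost.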

How the data were processed

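Total RNA (200 ng) of 18 samples was hybridised to 20 Agilent 1-colour arrays. Spot intensities were deposited as background-subtracted processed signals, made with Feature Extraction 10.7.3.1 for an mm9-based design, per the file headers. The submitters' processing notes name limma. The authors' deposited log2 table, with a median of 5.599 in every column, served as an alternative. Its scale, log2, follows from the scanner values, and its exact normalization and offset are not stated.

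Processed signals were put on the log2 scale minus the array's 75th percentile (933.8 to 1556 before scaling). Flagged spots (0.542%) were dropped, 0 spots were saturated, spots of a probe were averaged, and the 2 arrays of each of 2 samples (1 PHD3-/- at low oxygen, 1 PHD3-/- control) were averaged. Testing a probe required 3 of 18 samples past the background test and 2 values per group. The brightest tested probe stood for a gene (11 of the 33 genes had several). Probes (39429) were named through RefSeq accessions, and 26055 had a symbol. Of the 20813 genes tested, 14008 had a symbol and the rest kept their accession. Limma 3.58.1 (R 4.3.3) fitted 6 group means (12 residual and 2.48 prior degrees of freedom), with Benjamini-Hochberg adjustment over all genes and a threshold of 0.05. The code was tested on simulated data. The number of arrays limits the precision.

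Values of every sample were given for the 4 checkpoint kinases and, in the other pathways, for the 3 genes with the largest change at low oxygen in wild type, the 1 with the smallest and any called against its pathway's main direction. Of each other list, the 2 genes with the smallest adjusted p at low oxygen in wild type were named, apart from a few that are not reported here. The members and the lists (other repair, proliferation, macrophage, myeloid progenitor, lymphocyte, neutrophil, dendritic, erythroid and stromal markers) were chosen with earlier results of these data known. The normexp alternative used the median spot signal, since the files carry no mean signal column.

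Deviations of same-numbered samples correlated between -0.33 and 0.48 over 15 pairs of groups. All exceeded 0.1 for 1 pair, PHD3-/- at low oxygen and PHD3-/- starved (0.15 to 0.18). Their comparison is therefore also given with the replicate block. For PHD3-/- starved and PHD3-/- control the same-numbered values were 0.06 to 0.25, above the -0.17 to 0.01 of differently numbered samples. In all remaining pairs of groups these ranges overlapped. Same-numbered starved and control samples shared a slide in each genotype. Counts with the replicate block for starvation against control are given below.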

Additional observations from a re-analysis of the deposited data

How the results depend on the processing

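Over 13 other settings of background, normalization, filter, probe choice, slide and model, the number of the 33 genes lower at low oxygen was 17 to 25 in the knockout and 14 to 24 in wild type, against 24 and 23. Higher genes numbered 4 to 5 in the knockout and 3 to 4 in wild type. Single calls were followed through these settings and also through the fits that left out a single sample. Under every such alternative, 19 of 29 low-oxygen calls in the knockout and 17 of 27 in wild type were kept. Of the starvation calls, 2 of 12 in the knockout and 5 of 12 in wild type were kept. The counts between knockout and wild type, and of differing responses, were 0 under each alternative. Quantile normalization called 2 of all genes between starved knockout and starved wild-type cells, none of them among the 33. The replicate block called 1 of all genes between the genotypes at low oxygen and 1 when starved.

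Normexp background correction on the median signal left 14 genes lower at low oxygen in wild type, 3 lower in starved knockout cells, 5 lower in starved wild-type cells and 13 past the threshold between low oxygen and starvation in the knockout. Over all genes that correction called 4221 and 3934 at low oxygen in the knockout and wild type, where the reported setting called 8268 and 8039, and 920 and 1127 under starvation, where it called 2812 and 2602. It moved the median of all genes in starved wild-type cells to 0.184, and lower genes made up 37.2% of those calls, against 48.1%. There the dim Brca1 and Fancd2 turned to 0.31 and 0.30 (adjusted p 0.588 and 0.584), from fitted values of -1.24 each. Their low-oxygen calls in both genotypes, and that of Fancd2 in starved knockout cells (-0.43, adjusted p 0.87), were lost too. The cause was not tested.

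With the mean over a gene's probes, Rad50 between low oxygen and starvation turned to -0.32 in the knockout and -0.28 in wild type (adjusted p 0.00474 and 0.0101), because its 2 probes disagree. Leaving out 1 sample at a time gave 3 to 5 genes higher at low oxygen in the knockout, with 3 without low-oxygen replicate 2 or control replicate 1 or 2. With the replicate number as a block, 24 genes were lower and 5 higher at low oxygen in the knockout, 23 lower and 4 higher in wild type. Under starvation 12 and 11 were lower, and between the stresses 23 and 17 passed. The block ended the calls of Pms2 in starved wild-type cells (adjusted p 0.051) and of Xrcc2 between the stresses in the knockout (0.0615). Signal near background limits Brca1, Fancd2 and Chek1.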
